A study of Rattus norvegicus with 8 samples.

Results

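The miR-181 family was read in serum exosomes of rats with reflux esophagitis and of sham-operated controls. Its members were the 4 miRNAs that the array names rno-miR-181a-5p, rno-miR-181b-5p, rno-miR-181c-5p and rno-miR-181d-5p, of 719 rat miRNAs in all. The samples were 8 sera of male specific pathogen free Wistar rats, with 4 sham-operated controls (replicates 1, 2, 3 and 4) and 4 samples with acid reflux esophagitis (replicates 5, 8, 9 and 10, abbreviated RE5, RE8, RE9 and RE10). Reflux was produced surgically by narrowing the outlet of the stomach and ligating the border of its forestomach, and the sera with esophagitis were taken on day 21, in the chronic phase. The labels give no day for the controls, and the paper places them on the same day. Exosomes were precipitated from serum with ExoQuick, a polymer reagent that also brings down other particles, and their RNA was hybridised to a single-colour Agilent rat miRNA array.

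miRNAs are short RNAs that guide the silencing complex to messenger RNAs, mainly through pairing of their seed, the bases close to the 5′ end. The miR-181 family is best known in lymphocytes, where in mice miR-181a tunes the sensitivity of the T cell receptor by lowering phosphatases that restrain its signal. miR-181b is known for dampening NF-kappaB signalling in vascular endothelium, in mice, and miR-181c and miR-181d are studied mostly in brain and in tumour cells. Serum exosomes hold no cells of their own and carry RNA released by many tissues. The paper states a fixed mass of RNA per array, and each array was scaled, so the values give a miRNA's level relative to other miRNAs. The number of exosomes was not measured, so that fewer exosomes from a given source and less of a miRNA in each cannot be told apart here.

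The 4 mature sequences are shown because their likeness decides what an array probe can separate. They are from the RefSeq table for GRCr8, written 5′ to 3′, with the seed (bases 2 to 8) in capitals.
miR-181a-5p: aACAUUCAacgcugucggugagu
miR-181b-5p: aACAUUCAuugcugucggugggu
miR-181c-5p: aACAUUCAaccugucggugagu
miR-181d-5p: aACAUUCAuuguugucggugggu

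All 4 members carry 1 seed, and of the 693 mature names in the table only these 4 have it. Counted from 1 at the 5′ end, miR-181b-5p and miR-181d-5p differ by the single substitution C12U. From miR-181a-5p to miR-181b-5p the substitutions are A9U, C10U and A21G, and to miR-181d-5p they are A9U, C10U, C12U and A21G. miR-181c-5p is 22 bases long against 23 for the others, and shares the first 10 and the last 12 bases with miR-181a-5p.

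In GRCr8 the hairpins lie in 3 pairs, all with the mature members on the + strand. On chromosome 13, Mir181a-1 gives miR-181a-5p (chr13:52037081-52037103) and Mir181b1 gives miR-181b-5p (chr13:52037263-52037285), and the hairpins are 61 bases apart within the long noncoding RNA gene LOC108352541. On chromosome 3, Mir181a2 gives the same miR-181a-5p (chr3:43025601-43025623) and lies 986 bases from Mir181b2, inside the spans of the protein-coding gene Nr6a1 and of the noncoding LOC120101539. On chromosome 19, Mir181c (chr19:40888314-40888335) and Mir181d (chr19:40888484-40888506) are 77 bases apart, in no annotated gene, with Nanos3 974 bases further on. The array cannot tell which of its loci a miRNA came from.

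Each member was measured with 2 DNA probes of different length, 10 spots each. The probes are shown with capitals at the bases that do not pair with one other member of like 3′ end. That member is miR-181c-5p for miR-181a-5p and the reverse, and miR-181d-5p for miR-181b-5p and the reverse, with both aligned without gaps from the miRNA's 3′ end.
miR-181a-5p, 15 bases: actcaccgacagCGt
miR-181a-5p, 14 bases: actcaccgacagCG
miR-181b-5p, 14 bases: acccaccgacaGca
miR-181b-5p, 13 bases: acccaccgacaGc
miR-181c-5p, 19 bases: actcaccgacagGTtGAaT
miR-181c-5p, 18 bases: actcaccgacagGTtGAa
miR-181d-5p, 17 bases: acccaccgacaAcaatg
miR-181d-5p, 16 bases: acccaccgacaAcaat

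Every probe pairs in full with its own member. Both probes of miR-181b-5p leave 1 base unpaired with miR-181d-5p, and both probes of miR-181d-5p leave 1 unpaired with miR-181b-5p. The 13-base probe of miR-181b-5p also leaves 1 base unpaired with miR-181a-5p. The probes of miR-181a-5p leave 2 bases unpaired with miR-181c-5p, and 2 or 3 with miR-181b-5p. Those of miR-181c-5p leave 4 or 5 unpaired with miR-181a-5p. These counts allow no gap. With a gap at the 1 base that miR-181a-5p has and miR-181c-5p lacks, the probes of miR-181c-5p would pair in full with miR-181a-5p. How much of a signal came from another member was not tested.

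The arrays differed in brightness. Between 212 and 232 miRNAs were detected per control array and between 144 and 245 per array with esophagitis, the lowest in RE9. The 75th percentile of the signal over the 144 miRNAs detected on all 8 arrays, by which each array was scaled, was 494 to 915 in controls and 239 to 1080 in esophagitis, again lowest in RE9. Of 192 tested miRNAs, 48 (25.0%) were not detected in RE9. All arrays were on 1 slide and in 1 scan, but the controls filled its row 1 and the esophagitis samples its row 2, so row and group cannot be told apart. No source says that each serum came from a different rat, and p-values measure the spread between these samples, which may be partly technical.

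None of the 4 members differed between reflux esophagitis and control beyond the spread between arrays. All 4 entered the limma test with Benjamini-Hochberg adjustment over the 192 miRNAs that one group or the other detected throughout, and 0 of 4 passed in either direction, against a background of 1.04% called over all tested miRNAs (2 of 192, both lower). No member's groups were separate, where 3 of 192 tested miRNAs (1.56%) had groups that did not overlap. At an unadjusted p under 0.05, 5 of 192 miRNAs (2.6%) were lower and 0 (0.0%) higher, and no member was among them. The median log2 fold change was -0.00069 over the members and -0.29 over all tested miRNAs. Without RE9 these medians were 0.38 and -0.15. Log2 fold changes without an array took the percentile anew over the miRNAs that all arrays kept had detected. They therefore also hold that rescaling.

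**Figure D1:**
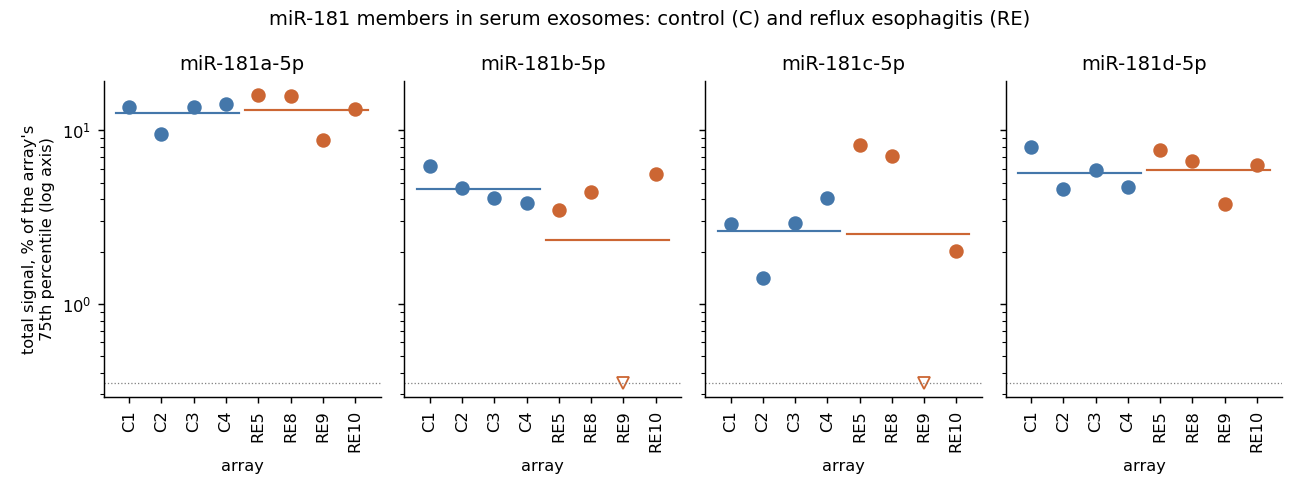
Total signal of each member as a percent of its array's 75th percentile (log axis), for control arrays C1 to C4 (blue) and esophagitis arrays RE5, RE8, RE9 and RE10 (orange), with 1 point per array. Lines are group means on the log scale, open triangles are arrays on which the member was not detected, and the dotted line is the floor at which those are placed. The groups overlap for every member, and miR-181b-5p and miR-181c-5p are at the floor in RE9.

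miR-181a-5p, the T cell member of the family, was detected on all 8 arrays. Its total signal, an intensity, was 79.1, 47.3, 76.3 and 130 in control replicates 1 to 4 and 167, 171, 21.1 and 59.0 in RE5, RE8, RE9 and RE10. As a percent of the array's 75th percentile these values were 13.6, 9.57, 13.7 and 14.2 in controls and 15.9, 15.9, 8.80 and 13.3 in esophagitis. RE5 and RE8 were above every control, RE10 lay among them and RE9 was below every control. The total of RE9 holds only the 15-base probe and those of the controls both probes. On the 15-base probe alone RE9, at 8.80%, was inside the control range of 7.15% to 11.2%. On the 14-base probe, at 1.88 times its error, RE9 was at 2.24%, below the control range of 2.43% to 3.07%. The scaled log2 mean was -2.99 ± 0.27 in the controls (SD, n = 4), while the arrays with esophagitis had -2.93 ± 0.40 (SD, n = 4). The log2 fold change was 0.058 with a standard error of 0.31 (limma, adjusted p = 0.960, exact permutation p = 0.657). Its 95% confidence interval runs from -0.65 to 0.77, which is a fold between 0.638 and 1.70.

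miR-181d-5p, encoded beside miR-181c-5p, was also detected on all 8 arrays. Its total signal was 46.7, 22.7, 32.8 and 43.3 in control replicates 1 to 4. In RE5, RE8, RE9 and RE10 it was 80.6, 71.8, 8.96 and 28.0. Once scaled, RE5, RE8 and RE10 lay among the controls and RE9 below all of them. The total of RE9 lacks the 16-base probe that every control total holds, and on the 17-base probe alone RE9, at 3.74%, was inside the control range of 2.81% to 4.81%. The scaled log2 mean was -4.14 ± 0.37 in the controls (SD, n = 4), while the arrays with esophagitis had -4.08 ± 0.45 (SD, n = 4). The log2 fold change was 0.060 with a standard error of 0.34 and a 95% interval from -0.71 to 0.83 (limma, adjusted p = 0.960, exact permutation p = 0.83).

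miR-181b-5p, the member known from endothelial NF-kappaB signalling, was detected on all 4 control arrays and on 3 of 4 with esophagitis. Its total signal was 36.1, 23.0, 22.7 and 34.9 in control replicates 1 to 4, and 36.7, 47.7 and 24.7 in RE5, RE8 and RE10. As a percent of the 75th percentile the controls gave 6.19, 4.65, 4.07 and 3.82 and these 3 arrays 3.49, 4.41 and 5.58. RE5 was below every control, RE8 and RE10 were among them, and RE9 was set to the floor of -8.16 on the scaled log2 scale. This floor is 0.0035 times the 75th percentile, the lowest scaled signal detected on any array. The lowest signal detected in RE9 was 4.60, at a 75th percentile of 239. An undetected miRNA is thus placed lower in RE9 than any signal that array detected, and fold changes with RE9 at the floor include this. The log2 fold change with RE9 at the floor was -0.97 with a standard error of 0.81 and a 95% interval from -2.81 to 0.86 (limma, adjusted p = 0.912, exact permutation p = 0.400). Without RE9, and with the percentile taken anew, it was 0.054 with a standard error of 0.36 (limma, adjusted p = 0.983). At the scaling over 8 arrays, RE5, RE8 and RE10 were at -4.84, -4.50 and -4.16, beside a control mean of -4.44. Their mean lies below that of the controls, so the sign without RE9 depends on the scaling.

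miR-181c-5p was detected on the same 7 arrays and had the widest spread of the members within both groups. Its total signal was 16.8, 6.99, 16.3 and 37.1 in control replicates 1 to 4, and 86.5, 77.0 and 8.86 in RE5, RE8 and RE10. Relative to the 75th percentile it was 2.88%, 1.42%, 2.93% and 4.06% in controls and 8.22%, 7.13% and 2.004% in RE5, RE8 and RE10. RE5 and RE8 were above every control, RE10 lay among the controls and RE9 was at the floor. The scaled log2 mean was -5.24 ± 0.64 in the controls (SD, n = 4), while the arrays with esophagitis had -5.30 ± 2.11 (SD, n = 4). The log2 fold change was -0.059 with a standard error of 0.94 and a 95% interval from -2.20 to 2.08 (limma, adjusted p = 0.971, exact permutation p = 1.0). Without RE9 it was 1.01 with a standard error of 0.61 (limma, adjusted p = 0.913), and the direction also turned without control replicate 4 (0.15) or RE10 (0.053). None of these values passed the test.

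**Figure D2:**
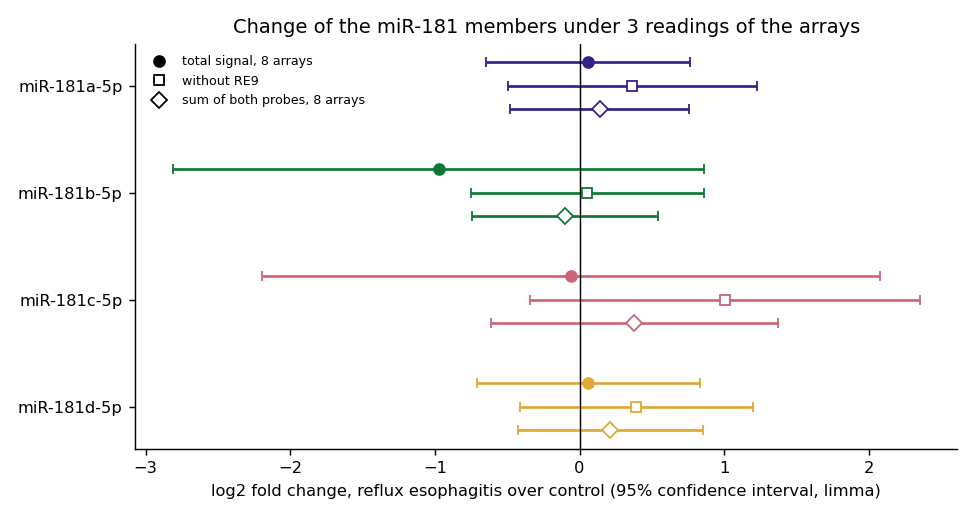
Log2 fold change of each member, esophagitis over control, with its 95% confidence interval from limma, for the total signal on 8 arrays (filled circles), without RE9 (open squares) and for the sum of both probes on 8 arrays (open diamonds). Every interval includes 0, and the intervals of miR-181b-5p and miR-181c-5p are the widest with the total signal on 8 arrays.

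The total signal itself does not count both probes on every array. In all 1706 detected values over the series it equalled the sum of those probes whose signal was at least 3 times their own error (tolerance 0.001), and in all 4046 undetected values no probe reached that limit and 0.1 was listed. For miR-181c-5p the total held 1, 1, 1 and 2 probes in control replicates 1 to 4 and 2, 2, 0 and 1 in RE5, RE8, RE9 and RE10. For miR-181a-5p and miR-181d-5p it held both probes on 7 arrays and only the longer in RE9.

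In RE9 the probes of the undetected members were dim but not at 0. The 14-base probe of miR-181b-5p read 6.81, which is 2.36 times its error, and 2.85% of the 75th percentile, inside the control range of 2.46% to 3.94%. Its 13-base probe, at 0.963 times its error, was at 1.13%, below the control range of 1.36% to 2.25%. The 19-base probe of miR-181c-5p read 4.35, which is 1.54 times its error, and 1.82% of the 75th percentile, inside the control range of 1.42% to 2.98%. Its 18-base probe, at 0.709 times its error, was at 0.831%, inside the control range of 0.801% to 1.17%. All of these signals were under the software's limit, and the part of the array's brightness in this was not tested. With both probes summed on every array, an alternative chosen after seeing the data, the log2 fold changes were 0.14, -0.098, 0.38 and 0.21 for miR-181a-5p, miR-181b-5p, miR-181c-5p and miR-181d-5p. Their 95% intervals were -0.48 to 0.76, -0.74 to 0.55, -0.61 to 1.37 and -0.42 to 0.85.

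**Figure D3:**
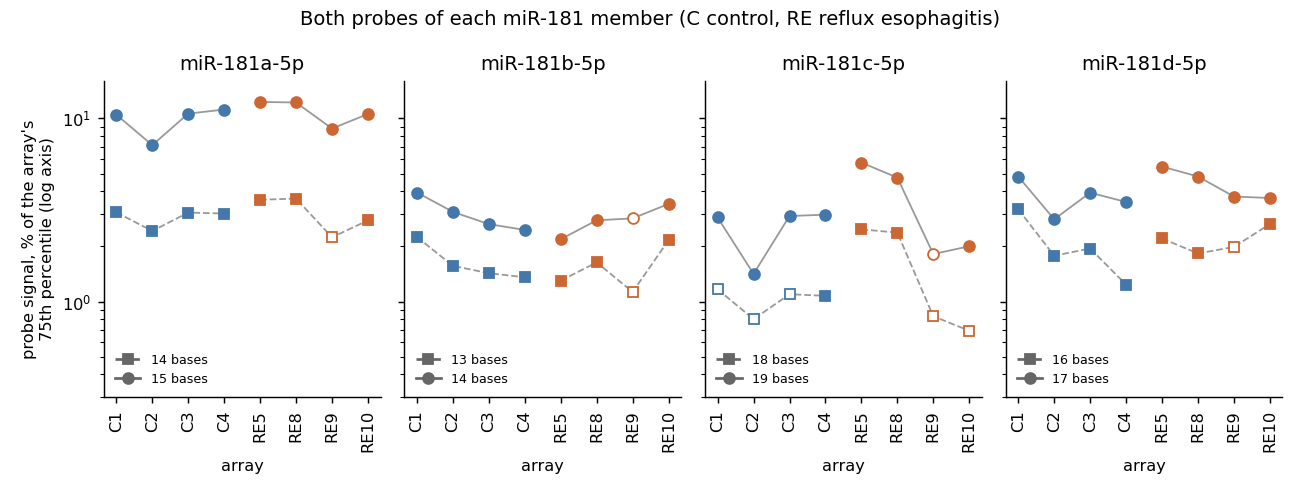
Signal of the longer (circles, solid line) and the shorter probe (squares, dashed line) of each member as a percent of the array's 75th percentile (log axis), by array. Open symbols are probes under 3 times their error, which the total signal leaves out. Both probes of miR-181a-5p and of miR-181c-5p are highest in RE5 and RE8, as is the 17-base probe of miR-181d-5p, while its 16-base probe is highest in control replicate 1.

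The difference between the groups had the same sign on both probes of each member. As the mean of esophagitis minus that of control on the scaled log2 scale, the 14-base and 15-base probes of miR-181a-5p gave 0.061 and 0.16, and the 13-base and 14-base probes of miR-181b-5p gave -0.099 and -0.11. The 18-base and 19-base probes of miR-181c-5p gave 0.41 and 0.37, of which the first is mostly from signals under the limit, since that probe passed 3 times its error on only 3 of 8 arrays. The 16-base and 17-base probes of miR-181d-5p gave 0.16 and 0.24. On the 19-base probe miR-181c-5p was 2.88%, 1.42%, 2.93% and 2.98% of the 75th percentile in control replicates 1 to 4 and 5.74%, 4.75%, 1.82% and 2.004% in RE5, RE8, RE9 and RE10. RE5 and RE8 were above every control on this probe too, and RE9 and RE10 were both among the controls.

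Within an array, the ratio of one member to another does not depend on the scaling. The log2 ratio of the 19-base miR-181c-5p probe to the 15-base miR-181a-5p probe was -1.87, -2.34, -1.86 and -1.91 in control replicates 1 to 4. It was -1.10, -1.36, -2.28 and -2.40 in RE5, RE8, RE9 and RE10. RE5 and RE8 were above every control, RE9 was among them and RE10 below all, so that the esophagitis arrays spanned 1.30 log2 units and the controls 0.48. The ratio of the 17-base miR-181d-5p probe to the same miR-181a-5p probe was steadier, with a span of 0.55 in controls and 0.35 in esophagitis.

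On the scaled longer probes, over the 8 arrays, miR-181a-5p, miR-181c-5p and miR-181d-5p varied together. Pearson's r was 0.89 for miR-181a-5p with miR-181c-5p, 0.80 for miR-181a-5p with miR-181d-5p and 0.87 for miR-181c-5p with miR-181d-5p. For miR-181b-5p it was -0.36 with miR-181a-5p, -0.52 with miR-181c-5p and -0.18 with miR-181d-5p. The member nearest to miR-181b-5p in sequence is miR-181d-5p, and the hairpins of miR-181b lie beside those of miR-181a. The part of sequence or locus in these correlations was not tested. With the total signal, over the 7 arrays that detected both members, r was 0.26 for miR-181b-5p with miR-181d-5p and 0.49 for miR-181c-5p with miR-181d-5p, so these relations depend on which signal is read. These are descriptions over arrays that share 1 scaling value per array.

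The unscaled signals followed the brightness of the array. Spearman's rho between the longer probe and the array's 75th percentile over the 8 arrays was 0.976, 0.905, 0.952 and 0.952 for miR-181a-5p, miR-181b-5p, miR-181c-5p and miR-181d-5p. The slope of log2 signal on log2 percentile was 1.24, 0.836, 1.75 and 1.21 in the same order, so that miR-181c-5p rose more steeply than the percentile and miR-181b-5p less steeply. RE5 and RE8, the arrays with the highest miR-181c-5p, also had the highest percentiles, 1052 and 1080, and the part of brightness in that difference was not tested.

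**Figure D4:**
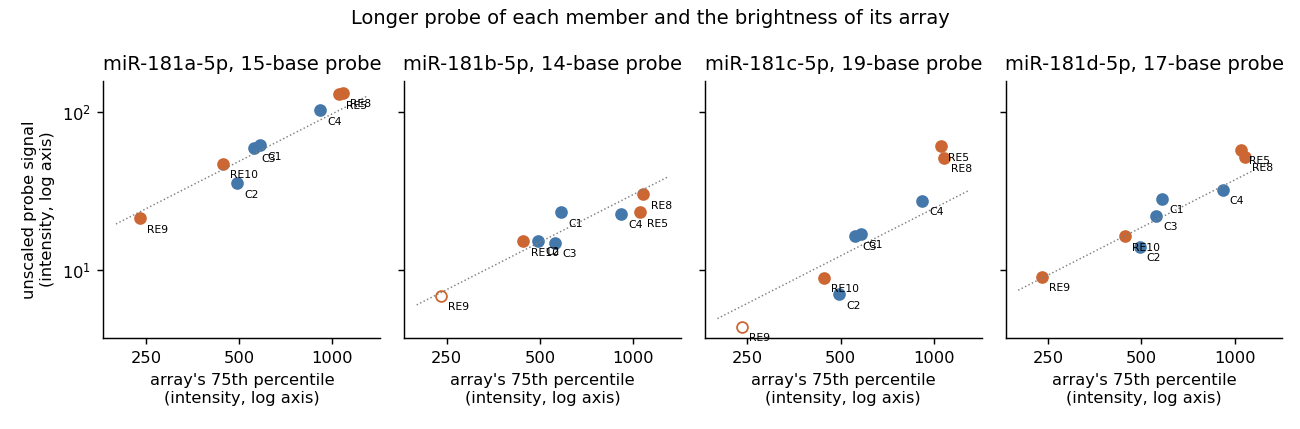
Unscaled signal of the longer probe of each member against the 75th percentile of its array, both as intensities on log axes, with 1 point per array (blue control, orange esophagitis, open where the probe was under 3 times its error). The dotted line has slope 1 and passes through the geometric mean ratio of the controls. RE5 and RE8 lie above the line for miR-181c-5p and below it for miR-181b-5p.

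Among the 143 other miRNAs detected on all 8 arrays, those most like miR-181a-5p by Pearson's r of scaled log2 values over the 8 arrays were miR-151-5p (0.943), miR-652-3p (0.862) and miR-26b-5p (0.834), where the median over the 143 was -0.235. For miR-181d-5p they were miR-34a-5p (0.852), which p53 is known to induce, then miR-181a-5p (0.791) and miR-29c-3p (0.667), where the median was 0.024. By rank correlation the 3 nearest of miR-181a-5p took places 7, 15 and 3, and those of miR-181d-5p places 1, 10 and 16. The order among near neighbours is therefore not firm. With RE9 left out at the same scaling, r was 0.935, 0.970 and 0.866 for the 3 of miR-181a-5p. For those of miR-181d-5p it was 0.736, 0.615 and 0.443. None of these 5 other miRNAs passed the test between groups, with log2 fold changes from -0.073 (miR-29c-3p) to 0.30 (miR-26b-5p).

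The array also holds 6 miRNAs from the other, 3p arm of the same hairpins, of which only that of miR-181d was detected on enough arrays to be tested. Its sequence in the RefSeq table, with bases 2 to 8 in capitals, shares no seed with the 5p members.
miR-181d-3p: cCACCGGGggaugaauguca

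miR-181d-3p was detected on all 4 controls, at 25.1, 21.3, 26.7 and 26.4, and in RE5, RE8 and RE10, at 25.5, 17.8 and 18.6. Once scaled, RE5 and RE8 were below every control and RE10 was among them. RE9 was placed at the floor, while its 16-base probe, at 3.57% of the 75th percentile, was inside the control range of 2.89% to 4.79%. The log2 fold change was -1.36 with a standard error of 0.69 and a 95% interval from -2.93 to 0.21 (limma, adjusted p = 0.870, exact permutation p = 0.0571). Without RE9 it was -0.53 with a standard error of 0.41 (limma, adjusted p = 0.913). This value rests on 1 probe, since its 15-base probe was below 0 on all 8 arrays (-1.74 to -0.148) while the 16-base probe read 8.54 to 26.7, and in RE9 the latter was 2.92 times its error, just under the limit.

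miR-181a-1-3p was detected on 3 arrays, at 7.60 in control replicate 2, 12.4 in RE5 and 9.32 in RE8, and was not tested. miR-181a-2-3p, miR-181b-1-3p, miR-181b-2-3p and miR-181c-3p were detected on none of the 8 arrays.

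**Figure D5:**
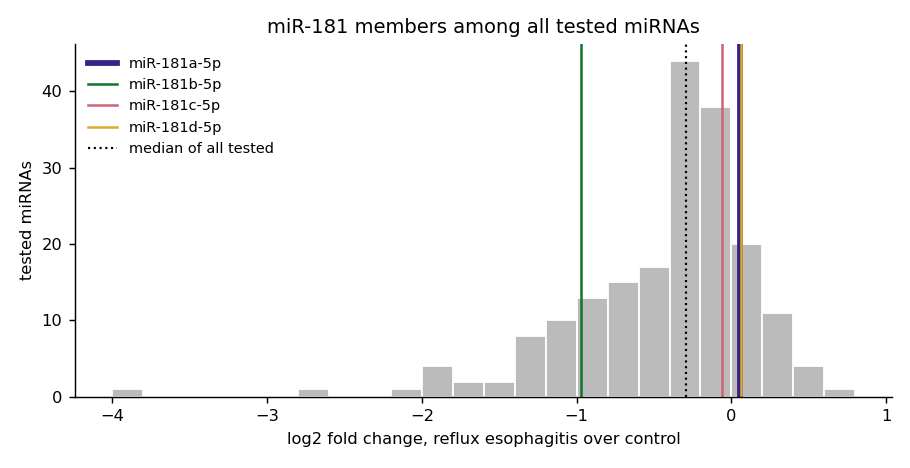
Log2 fold changes, esophagitis over control, of all 192 tested miRNAs (grey bars), with the miR-181 members as coloured lines and the median of all tested as a dotted line. miR-181a-5p and miR-181d-5p coincide at 0.058 and 0.060, and miR-181b-5p is at -0.97.

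Other miRNAs known with miR-181 as regulators of lymphocyte and inflammatory signalling were measured on the same arrays. Of 11 listed, 9 were tested, and 0 were called higher and 0 lower, where 2 of all 192 tested miRNAs (1.04%) were called. The median log2 fold change of the 9 was -0.26, beside -0.29 over all tested miRNAs. Without RE9 these were 0.035 and -0.15. The highest was let-7a-5p at 0.47 and the lowest miR-146b-5p, a feedback inhibitor of NF-kappaB signalling, at -0.90, undetected in RE9 and at 0.11 without it. The summed level of the list was 14.0 to 22.7 times the 75th percentile in controls and 11.8 to 23.1 times in esophagitis.

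Markers of cells that release RNA into serum were read beside the members. None of the lists held a call, where 2 of all 192 tested miRNAs (1.04%) were called. For the 5 leukocyte miRNAs the median log2 fold change was 0.080 (0.37 without RE9), from miR-342-3p at -0.47 to miR-142-3p at 0.69, and a summed level of 5.29 to 8.49 in controls and 5.02 to 10.05 in esophagitis. For the 3 miRNAs of red blood cells the median was 0.26, from miR-451-5p at -0.16 to miR-144-5p at 0.32, and summed to 8.71 to 21.8 in controls and 7.43 to 18.3 in esophagitis. The 4 tested platelet and endothelial miRNAs had a median of -0.52, which was 0.14 without RE9, from miR-221-3p at -0.92 (undetected in RE9, -0.11 without it) to miR-126a-3p at 0.26, with sums of 5.40 to 7.49 in controls and 4.74 to 6.51 in esophagitis. Most of this sum is miR-24-3p, whose scaled log2 mean in controls was 2.64, beside -1.92 for miR-126a-3p.

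miR-122-5p was not detected on 1 of the 4 esophagitis arrays, RE9, and its log2 fold change was -2.08 with RE9 at the floor and -0.83 without it. The other liver miRNA, miR-192-5p, was at -0.71, and the list's median was -1.40, or -0.78 without RE9. The 2 liver miRNAs had sums of 0.368 to 1.13 in controls and 0.322 to 0.384 in esophagitis. Of 4 neural miRNAs only miR-128-3p was tested, at 0.19, and miR-124-3p and miR-9a-5p, which define neurons and their precursors, were detected on no array. The neural list summed to 1.36 to 2.71 in controls and 1.096 to 4.60 in esophagitis. The part of these cell sources in the levels of the miR-181 members was not tested.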

How the data were processed

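RNA of serum exosomes was labelled and hybridised to 8 single-colour Agilent rat miRNA arrays. The deposited files hold intensity values that the authors obtained with Agilent Feature Extraction 10.10.1.1, already background-subtracted but with no scaling across arrays. Their value table repeats the processed signal of all 15095 features. Each miRNA's total signal was scaled to the 75th percentile, within its array, of the 144 miRNAs that all arrays detected. Lower values were raised to the smallest scaled signal that counted as detected, before taking log2. No rat miRNA spot was saturated, and 373 to 455 of 14380 spots per array were marked as outliers by the software. The number of arrays limits the precision.

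limma 3.58.1 in R 4.3.3 compared the groups over the 192 miRNAs that every array of one group or the other detected, two-sided, with Benjamini-Hochberg adjustment at 0.05. Two-sided exact permutation tests ran over all 70 splits, with 0.0286 as the smallest p possible. The limma step was tried on simulated data without undetected values, so its behaviour with values at the floor was not tested. Sequences were matched by name in the RefSeq GRCr8 miRNA table, which held 4 of 4 members. Python 3.11.15 with pandas 2.3.3, numpy 2.4.6 and matplotlib 3.10.9 made the tables and figures.

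Named in the text by rule are the members, the other arms of their hairpins, the 3 most alike of each member detected on all arrays, and the highest and lowest tested member of each marker or related list. Named beside these are miR-24-3p, for its part in the sum of its list, and miR-124-3p and miR-9a-5p, which no array detected. Members and lists were chosen with earlier results of these data known. Alternatives covered the signal, scaling, floor, filter, variance model, the methods' t-test and analysis of variance, and leaving out each array. With an array left out, the percentile, floor and filter were taken anew over the arrays kept.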

Additional observations from a re-analysis of the deposited data

Results flagged for a closer look

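Control replicate 2 stood apart from the other controls for miR-181a-5p, at -3.38 on the scaled log2 scale with the nearest control at -2.88. It also stood apart for miR-652-3p, at -2.87 with the nearest control at -2.24. That miRNA is named for its likeness to miR-181a-5p over these same arrays, control replicate 2 included, so the 2 flags are not independent. In both cases the gap to the nearest sample was more of the group's range than Dixon's critical value allows for 4 samples. Of 36 groups of 4 compared, 2 stood apart, where chance alone marks about 1 in 20, or 1.8 of 36. The groups came from the 26 miRNAs of the naming rule, and only those in which all 4 arrays detected the miRNA were compared. Groups with RE9 at the floor were therefore left out, such as that of miR-181b-5p, with RE9 at -8.16 and the nearest array at -4.84.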

How the results depend on the processing

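None of the members and not miR-181d-3p passed the test under any alternative run, and the lowest adjusted p was 0.152 among the members, for miR-181c-5p, and 0.115 for miR-181d-3p, both with array quality weights. The log2 fold changes of miR-181a-5p, miR-181b-5p, miR-181c-5p and miR-181d-5p changed sign under 4 of 31, 3 of 30, 16 of 30 and 4 of 31 alternatives, and that of miR-181d-3p under 0 of 29. These totals include settings that cannot move the log2 fold change and so keep its sign by design. They are the detection filters, the trended and robust prior, the methods' t-test and analysis of variance, and the slide column as a block. Without scaling, miR-181a-5p was at -0.015, miR-181d-5p at -0.013 and miR-181c-5p at 0.36. With normexp, miR-181b-5p was at 0.074 and miR-181c-5p at 0.28, and with the methods' scaling without RE9 they were at 0.21 and 1.16. miR-181c-5p was also positive with the mean processed signal (0.38), the methods' scaling (0.87), scaling by the median (0.19), quantile normalization (1.26), array quality weights (1.21), the deposited value table (0.34), and its 19-base (0.37) or 18-base probe (0.41). The methods' scaling takes the percentile over all miRNAs and moved the median of all tested miRNAs to 1.39, with miR-181a-5p at 1.76 and miR-181d-5p at 1.76, the highest values of these members under any alternative run. Leaving out 1 array each gave -0.074 to 0.36 for miR-181a-5p, -1.39 to 0.054 for miR-181b-5p, -0.62 to 1.01 for miR-181c-5p, -0.066 to 0.39 for miR-181d-5p and -1.84 to -0.53 for miR-181d-3p. In each case the highest value was that without RE9. miR-181a-5p was below 0 without control replicate 2 (-0.074), RE5 (-0.034) or RE8 (-0.033), and miR-181d-5p without control replicate 2 (-0.040), control replicate 4 (-0.025) or RE5 (-0.066). Chosen after seeing the data were scaling by the summed signal (miR-181c-5p at 0.22), the sum of all probes (0.38) and the slide column as a block.

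The 2 miRNAs called lower over all tested became 0 with the mean processed signal, normexp, the methods' scaling, quantile normalization, only miRNAs detected on all 8 arrays, the value table and the sum of all probes. They became 1 without scaling, with miRNAs detected on at least 1 array, without a filter, with a trended and robust prior, with the methods' t-test and analysis of variance (Benjamini-Hochberg or Bonferroni), with the slide column as a block and with scaling by the summed signal. With array quality weights they became 3. On the scaled log2 scale of the main setting, the esophagitis means of the 2 were -8.16, which is the floor, and -7.78. The cause of these changes in the count was not tested. Leaving out 1 array gave 1 to 2, with 1 without control replicate 1, 2 or 3, RE8 or RE10. The count called higher was 0 in all of these. No paired analysis was possible because the groups share no replicate number. With 4 arrays a group the intervals leave room for changes of the sizes given, and signals under 3 times their error have no measured total.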
